A study of Mus musculus with 4 samples.

Results

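Aminoacyl-tRNA synthetases are the enzymes that join each amino acid to its transfer RNA, the step that gives the genetic code its meaning during translation. Their transcripts were followed in whole right adrenal glands of mice 1 h after an injection. The members are the protein-coding genes whose description in the deposited count table names a tRNA synthetase, 42 of the 54532 genes in the table. Of these, 21 encode cytosolic enzymes, 17 encode mitochondrial enzymes and 4 encode accessory or domain proteins that charge no tRNA. Genes were placed by their description, which puts Tarsl2 with the cytosolic enzymes and Aimp2 with the accessory proteins although both symbols end in 2.

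All animals were adult male C57BL/6 mice. Dexamethasone, a synthetic glucocorticoid, was injected intraperitoneally at 10 µg into 5 mice, and sterile phosphate-buffered saline (PBS), the vehicle, into another 5. Right glands, trimmed of fat, were pooled from 2 and 3 mice into 2 libraries per group, and the labels do not tie the pool sizes to the replicate numbers. Every value therefore rests on n = 2 libraries per group, and p-values measure the spread between pools rather than between single mice.

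In the cytosol most of these enzymes act as free proteins, while 8 polypeptides, Dars, Eprs, Iars, Kars, Lars, Mars, Qars and Rars, are bound with scaffold proteins into the multisynthetase complex. Mitochondria translate a small set of respiratory chain proteins and use their own synthetases, encoded in the nucleus by separate genes in most cases. The adrenal cortex makes steroid hormones partly inside mitochondria, under control of pituitary corticotropin, which glucocorticoids suppress. In mammals the transcription factor ATF4, which is made when amino acids run short, is known to raise many cytosolic synthetase genes, and MYC is known to raise genes of protein synthesis.

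Promoter letters are shown first because ATF4 acts through a short composite element with C/EBP proteins. RefSeq promoters of GRCm38.p6, from 250 bases before to 50 bases after the start site, were at hand for 32 of the 42 members: 14 cytosolic, 14 mitochondrial and 4 accessory. The composite letters TGATGNAAN, searched on both strands, were present in 5 of the 14 cytosolic promoters and in 0 of 14 mitochondrial and 0 of 4 accessory ones. Over all 32851 promoters of the same length, 3.95% held them. Counted by gene with a match in any of its promoters, as the members were, the share was 4.5% of 27025 genes. The 5 promoters belong to Aars on chr8:111033722-111033861, Gars on chr6:55037881-55038020, Iars on chr13:49682010-49682149, Yars on chr4:129189783-129189922, all on the plus strand, and Tars on chr15:11399639-11399778 on the minus strand. Each line gives 120 bases before to 20 bases after the start site, read 5′ to 3′ on the strand of the gene, with each match to the composite letters or their reverse complement in capitals. These 5 were chosen for the match.
Aars: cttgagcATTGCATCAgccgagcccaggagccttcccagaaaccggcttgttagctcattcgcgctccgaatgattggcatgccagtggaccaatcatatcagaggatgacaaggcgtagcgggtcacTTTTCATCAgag
Gars: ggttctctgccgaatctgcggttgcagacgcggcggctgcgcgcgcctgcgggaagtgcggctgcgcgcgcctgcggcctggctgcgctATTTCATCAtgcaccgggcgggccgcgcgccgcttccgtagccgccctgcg
Iars: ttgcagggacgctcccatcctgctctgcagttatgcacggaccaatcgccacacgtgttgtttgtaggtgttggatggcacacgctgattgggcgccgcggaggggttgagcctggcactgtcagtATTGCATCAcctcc
Tars: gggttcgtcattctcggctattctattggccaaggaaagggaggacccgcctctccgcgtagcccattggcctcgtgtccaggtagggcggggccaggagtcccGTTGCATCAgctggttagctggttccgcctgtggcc
Yars: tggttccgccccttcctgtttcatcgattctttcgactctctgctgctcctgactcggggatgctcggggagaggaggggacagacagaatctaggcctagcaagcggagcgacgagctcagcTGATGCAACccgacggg

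Aars holds 2 matches, one beginning 113 bases before the start site and one at base 9 after it. In Gars and Tars the match begins 31 and 16 bases before the start, and in Iars and Yars at bases 7 and 4 after it. The E-box CACGTG, which MYC and its relatives bind, was found in 4 of 14 cytosolic promoters (Aars, Farsb, Iars and Tars) and 1 of 14 mitochondrial ones (Ears2). It was in 7.15% of all promoters and, by gene, in 8.09%. The palindromic glucocorticoid response element and the cAMP response element TGACGTCA were each in 0 of the 32 promoters. Of all promoters 0.475% and 1.79% held them, and by gene 0.5365% and 2.03%. The NRF1 palindrome was in 3 cytosolic and 2 mitochondrial promoters (4.603% of all, 5.19% by gene). The ETS letters CCGGAAGT were in 2 cytosolic, 1 mitochondrial and 2 accessory ones (3.89% of all, 4.31% by gene). A match describes letters in the window and is no evidence of binding.

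Counts assigned to genes totalled between 21904510 and 26948588 per library, and the 42 members took 0.308% and 0.340% of them in the dexamethasone libraries, replicate 1 first, against 0.409% and 0.442% in the PBS libraries. The glucocorticoid-induced gene Tsc22d3 had 235 and 207 CPM (read counts scaled to a common library size with TMM factors) in dexamethasone libraries, against 86.5 and 80.5 CPM in PBS libraries. Cortex markers were abundant, with a summed level between 42232 and 60446 CPM over 8 genes. Of 4 kidney markers, 3 were at 0 counts in every library, and 5 lymphocyte markers summed to between 0.291 and 1.83 CPM. One trend, whose source was not tested, touches every fold change here. Longer genes tended to be higher after dexamethasone: over 14249 protein-coding genes, which are not independent replicates, log2 fold change and log2 of the listed gene length had a Pearson r of 0.39. In 10 bins of equal size by length the median log2 fold change ran between −0.42 for the shortest genes and 0.33 for the longest. Values with this length trend removed are therefore given for the groups, and for the members that it moved most.

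After dexamethasone the synthetase transcripts lay slightly below their PBS levels almost throughout, but no single one passed the test. Of 41 members tested (Aarsd1 was too low), 36 had a log2 fold change below 0, against 49% of all 16027 genes tested; scaling by library totals alone gave 29 of 41. Their median log2 fold change was −0.19, against 0.01 over all genes. With Benjamini-Hochberg adjustment over all genes, edgeR's quasi-likelihood test called 0 members higher and 0 lower at an adjusted p of 0.05, against 3.26% of all genes higher and 1.37% lower. At an unadjusted p under 0.05, 9 members were lower and 0 higher, against 13.1% of all genes lower and 14.3% higher.

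The sizes of the calls over the whole table set these values in scale. Among the 219 genes called lower the call of smallest size stood at −0.59, and the median was −0.93. Of the members 2, Lars2 and Eprs, differed by more than 0.5 on the log2 scale, and the standard errors of the members had a median of 0.15. The other 39 were smaller in size than any call of this test in either direction.

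In 26 of the 41 members both dexamethasone libraries were below both PBS libraries, in 2 both were above, and in 13 they overlapped. Over all genes 29.7% were lower in this sense and 30.8% were higher. With the length trend removed, 37 members lay below 0 (51.9% of all genes did) with a median of −0.24, against −0.02 over all genes. Since these are whole glands, fewer cells of a type and less RNA per cell cannot be told apart.

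**Figure D1:**
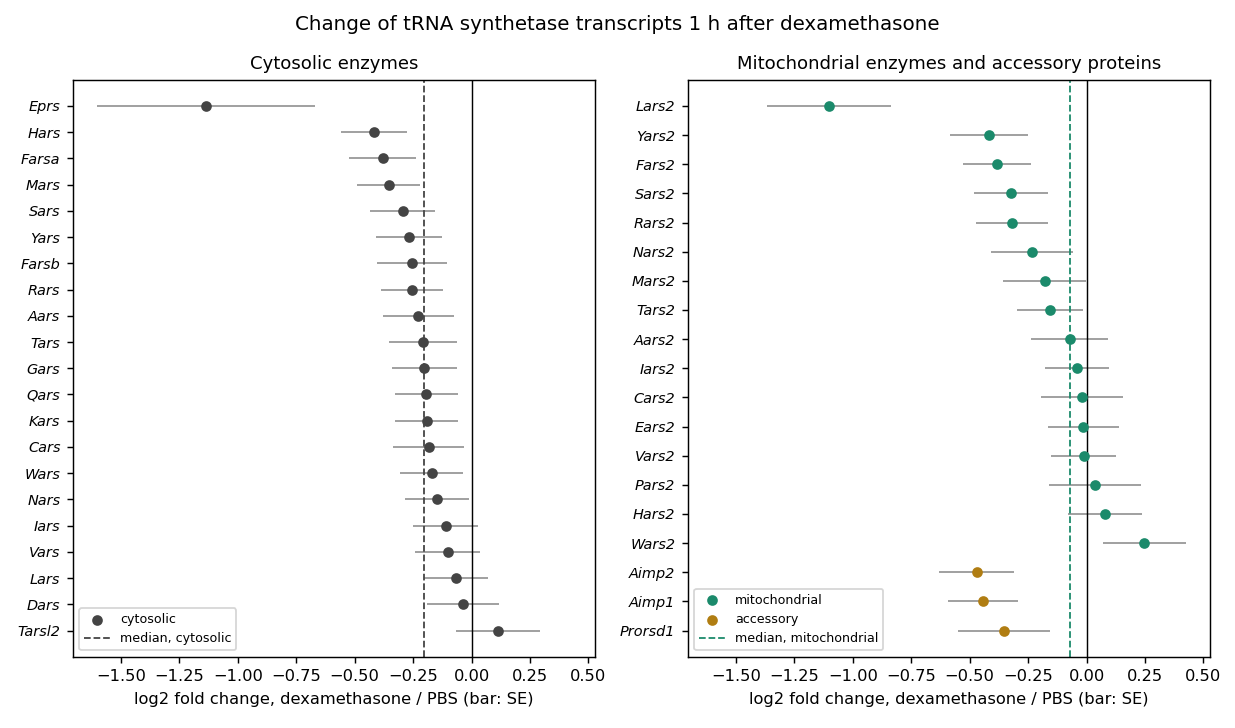
Log2 fold change, dexamethasone over PBS, of 40 of the 41 tested members (points, with SE bars; n = 2 libraries per group), with dashed lines at the group medians. Cytosolic genes cluster near −0.20, with Eprs at −1.14, and mitochondrial genes straddle 0, with Lars2 at −1.10.

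The calls depended on which libraries entered. Without PBS replicate 1, 5 members were lower at an adjusted p of 0.05 (Eprs, Lars2, Hars, Fars2 and Aimp1), against 10.4% of all genes lower in that fit. Leaving out PBS replicate 2 gave 1 lower member (2.15% of all genes), leaving out dexamethasone replicate 2 gave 1 (0.882%), and leaving out dexamethasone replicate 1 gave 0 (4.69%). A lone library is assumed in these fits to vary like the others. DESeq2 called 1 member lower (5.04% of all genes) and limma-voom called 1 (1.34%). A stricter filter called 1 (1.8%), no filter 2 (4.91%), removal of the length trend 1 (0.78%) and that removal with a replicate block 1 (0.655%). Lars2 was among the members called in each of these fits apart from the one without dexamethasone replicate 1.

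Cytosolic enzymes lay below 0 almost throughout. A log2 fold change below 0 was found for 20 of 21 (18 with library totals alone), and the median was −0.20. With library totals alone the median was −0.11, where that of all genes was 0.10. In 16 of 21 both dexamethasone libraries were below both PBS libraries, against 29.7% of all genes. None was higher in both, against 30.8% of all genes. The summed level of the 21 transcripts was 1933 and 2016 CPM in dexamethasone libraries and 2157 and 3023 CPM in PBS libraries. Without Eprs the sums were 1669 and 1688 CPM after dexamethasone, with 1882 and 1998 CPM after PBS, a ratio of 0.865.

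Among the free cytosolic enzymes Hars, which charges histidine, showed the smallest p. It had 71.7 and 70.6 CPM in dexamethasone libraries and 88.6 and 101 CPM in PBS libraries (log2 fold change −0.42 ± 0.14 SE, adjusted p = 0.104). The groups did not overlap and the dexamethasone libraries were nearly equal. Farsa, the alpha subunit of the phenylalanine enzyme, had 49.4 and 42.5 CPM after dexamethasone, with 59.7 and 59.8 CPM after PBS (−0.38 ± 0.14, adjusted p = 0.133). Farsb, its beta subunit, had 56.0 and 45.9 CPM after dexamethasone, with 59.6 and 62.1 CPM after PBS (−0.26 ± 0.15, adjusted p = 0.300). For both subunits dexamethasone replicate 2 was the lowest library.

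Sars, the serine enzyme, had 131 and 135 CPM in dexamethasone libraries and 156 and 172 CPM in PBS libraries (−0.30 ± 0.14, adjusted p = 0.203). Yars, the tyrosine enzyme, had 75.5 and 81.8 CPM after dexamethasone, with 89.2 and 100.1 CPM after PBS (−0.27 ± 0.14, adjusted p = 0.251). In these genes, as in 18 of the 21 cytosolic ones, PBS replicate 2 was the highest library, which held for 2 of the 17 mitochondrial genes. Aars, the alanine enzyme with 2 composite matches, had 187 and 217 CPM after dexamethasone, with 222 and 251 CPM after PBS (−0.23 ± 0.15, adjusted p = 0.358). Gars, which charges glycine in both the cytosol and mitochondria, had 71.7 and 77.5 CPM after dexamethasone, with 80.9 and 90.7 CPM after PBS (−0.20 ± 0.14, adjusted p = 0.380). Tars, for threonine, had 57.8 and 49.9 CPM after dexamethasone, with 59.8 and 64.7 CPM after PBS (−0.21 ± 0.14, adjusted p = 0.379). The 5 genes whose promoters are printed thus ran from −0.27 (Yars) to −0.11 (Iars), inside the range of the other cytosolic genes. With the length trend removed they ran from −0.44 (Aars) to −0.15 (Gars). There Aars was lower than every other cytosolic gene but Eprs, with Farsa next at −0.42.

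The remaining free enzymes were Nars (asparagine) at −0.15, Cars (cysteine) at −0.18, Wars (tryptophan) at −0.17 and Vars (valine) at −0.10, with adjusted p from 0.442 to 0.672. Of the 4, Vars alone had overlapping groups, at 78.5 and 87.6 CPM in dexamethasone libraries, against 91.5 and 86.6 CPM in PBS libraries. Tarsl2, a second cytosolic threonine enzyme of low abundance, was the one cytosolic gene above 0. It had 23.8 and 26.1 CPM in dexamethasone libraries and 26.2 and 19.8 CPM in PBS libraries (0.11 ± 0.18, adjusted p = 0.716). Its sign turned with the length trend removed, at −0.01.

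Enzymes of the multisynthetase complex and free enzymes had like medians, −0.19 over 8 and −0.21 over 13 genes. Enzymes of the 2 structural classes also had like medians, −0.18 over 9 class I and −0.21 over 11 class II cytosolic genes, leaving out Eprs, which joins both classes in 1 chain. These differences were not tested, since genes are not replicates of a condition.

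Within the complex Mars, the methionine enzyme that also serves initiator tRNA, had 79.6 and 81.6 CPM in dexamethasone libraries and 99.7 and 106 CPM in PBS libraries (−0.35 ± 0.13, adjusted p = 0.133). Its exons overlap those of the stress gene Ddit3 on the opposite strand by 68 bases. Ddit3 had 50.8 and 44.3 CPM after dexamethasone, with 25.3 and 58.1 CPM after PBS. Rars (arginine) had 70.0 and 71.1 CPM after dexamethasone, with 81.9 and 86.4 CPM after PBS (−0.25 ± 0.13, adjusted p = 0.249). Qars (glutamine) stood at −0.19, Kars (lysine, cytosolic and mitochondrial) at −0.19 and Iars (isoleucine) at −0.11, each with non-overlapping groups. Dars (aspartate) at −0.04 and Lars (leucine) at −0.06 had overlapping groups. Lars, which also acts as a leucine sensor upstream of mTORC1, had 44.8 and 47.0 CPM in dexamethasone libraries and 46.9 and 49.2 CPM in PBS libraries.

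Eprs encodes the glutamate and proline enzymes as 1 polypeptide, and it was the member with the most uneven libraries. Located at chr1:185363044-185428360 (GRCm38, as the deposited table gives it) with a listed length of 18102 bases, the longest of all members, it had 264 and 327 CPM in dexamethasone libraries and 275 and 1025 CPM in PBS libraries. The log2 fold change was −1.14 ± 0.47 (adjusted p = 0.157). PBS replicate 2 alone stood apart, at 3.13 times the next highest library, and the other PBS library lay between the dexamethasone libraries. Without PBS replicate 2 the log2 fold change was 0.09 (adjusted p = 0.858), and without PBS replicate 1 it was −1.81 (adjusted p = 1.41e-08).

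Few transcripts had a library that stood as far out as Eprs. Among 9945 genes with a mean of at least 10 CPM, 13 had 1 library at least as far above the next (0.131%), and in 12 of these, Eprs included, that library was PBS replicate 2. They were named after their values were seen. Crem, a cAMP-responsive transcription factor, had 44.8 and 43.0 CPM in dexamethasone libraries and 54.1 and 261 CPM in PBS libraries. Srxn1, an antioxidant enzyme, had 232 and 202 CPM after dexamethasone, with 341 and 1272 CPM after PBS. Dgat1, which makes triglycerides, had 23.7 and 26.6 CPM after dexamethasone, with 28.6 and 149.8 CPM after PBS. Emd, Trmt61b, Txndc11, Maff, Atg101, Nr4a2, Procr and 2010003K11Rik completed the 12, and the remaining gene of the 13 was the liver gene Alb, highest in PBS replicate 1. What sets these genes apart in 1 pool was not tested.

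**Figure D2:**
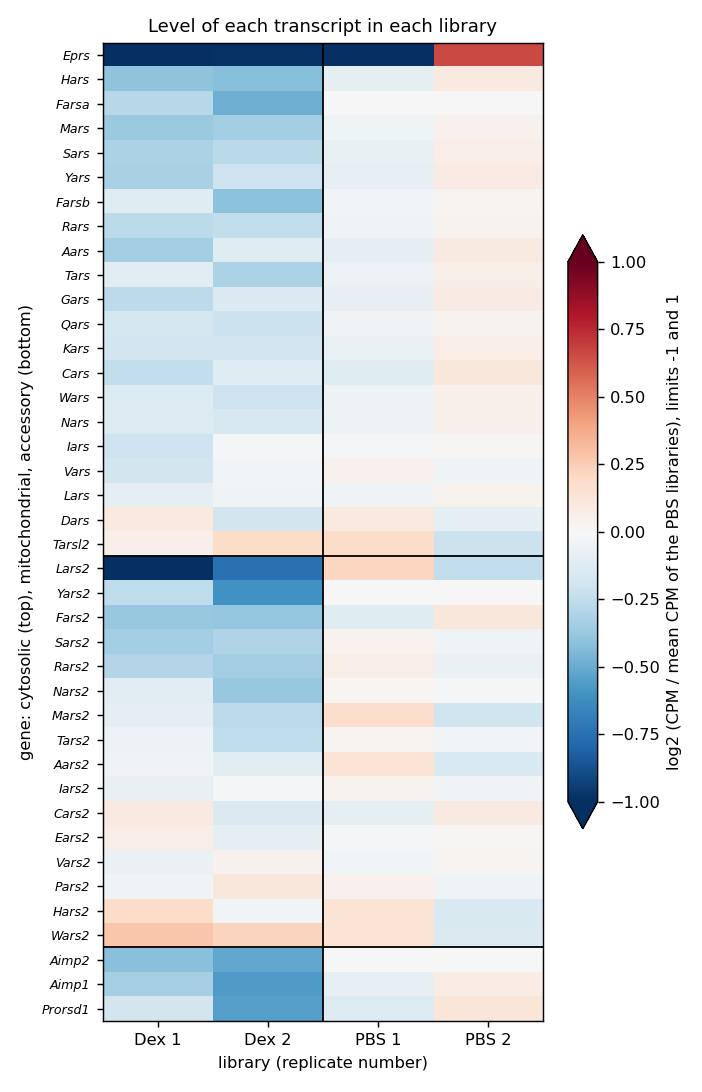
Heat map of 40 of the 41 tested members in each library, as log2 of CPM over the mean of the PBS libraries (colour, limited to −1 and 1; dexamethasone libraries left, PBS libraries right; lines separate cytosolic, mitochondrial and accessory genes). Blue runs through the dexamethasone columns of most cytosolic genes, and the single strongly red cell is Eprs in PBS replicate 2.

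Mitochondrial enzymes were mixed. Below 0 lay 13 of 17 (8 with library totals alone), with a median of −0.07. Both dexamethasone libraries were below both PBS libraries in 7, above in 2 and overlapping in 8. Of all genes 29.7% were lower and 30.8% higher in this sense. Their summed level was 972 and 1229 CPM in dexamethasone libraries and 1899 and 1536 CPM in PBS libraries. Most of this gap was Lars2, since without it the sums were 612 and 588 CPM after dexamethasone, with 656 and 632 CPM after PBS, a ratio of 0.933. With the length trend removed the mitochondrial median was −0.24, close to the cytosolic one of −0.23, so the order of the groups changed with the handling of length. It also changed without PBS replicate 2, where the mitochondrial median was −0.20 and the cytosolic one −0.15.

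Levels were also compared between genes, per length. Cytosolic enzymes had a median of 19.4 CPM per kb in dexamethasone libraries and 25.5 in PBS libraries. For mitochondrial enzymes the medians were 5.69 and 5.98 CPM per kb after dexamethasone and PBS. Lars2 stood out, at 45.1 CPM per kb after dexamethasone and 96.8 after PBS, the highest of all members in PBS glands. There Nars (50.6 after dexamethasone and 56.1 after PBS) and Hars (35.8 and 47.8) came next. Iars2, at 21.7 and 22.4, was also far above the mitochondrial medians. Lowest among the tested members was Mars2, at 1.85 CPM per kb after dexamethasone and 2.10 after PBS, with Nars2 at 1.96 and 2.30 and Cars2 at 2.12 and 2.15 close by.

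Lars2, which charges mitochondrial leucine tRNA, came nearest to passing. At chr9:123366927-123462666, it had 360.0 and 640.5 CPM in dexamethasone libraries and 1243 and 904 CPM in PBS libraries. The log2 fold change was −1.10 ± 0.27 and the adjusted p was 0.0529, and the groups did not overlap. The dexamethasone libraries differed by 1.78 times, the largest ratio between those libraries among the members. Lars2 passed with DESeq2 (adjusted p = 0.000295) and limma-voom (adjusted p = 0.0459), and with the length trend removed (−1.36, adjusted p = 0.0322). It did not pass with library totals alone (adjusted p = 0.0502) or RLE size factors (adjusted p = 0.0552). Nor did it pass without dexamethasone replicate 1 (−0.75, adjusted p = 0.0529), whereas without dexamethasone replicate 2 it was at −1.58 (adjusted p = 0.000315), without PBS replicate 1 at −0.87 (adjusted p = 0.0055) and without PBS replicate 2 at −1.32 (adjusted p = 0.0001).

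Rows with the most similar pattern were sought after the Lars2 values were seen, among 6334 genes, by the largest gap in log2 CPM to Lars2 in any of the 4 libraries after centring each gene. Nearest was Gm23935, a 57-base row with a miRNA biotype, with 692 and 1180.1 CPM in dexamethasone libraries and 2917 and 2049 CPM in PBS libraries (gap 0.18). Next was Alas1, the rate-limiting enzyme of haem synthesis, at 479 and 643 CPM in dexamethasone libraries, against 1444 and 1219 CPM in PBS libraries (gap 0.26; log2 fold change −1.25, adjusted p = 0.0109). The protease gene Adamts1 followed, with 26.5 and 28.3 CPM in dexamethasone libraries and 57.4 and 69.5 CPM in PBS libraries (gap 0.39). The row CT010467.1, of rRNA biotype, had 1785 and 2325 CPM after dexamethasone, with 7124 and 2955 CPM after PBS (gap 0.42). In each of these rows, as in Lars2, dexamethasone replicate 1 was the lowest library, and PBS replicate 1 was the highest in all but Adamts1.

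Rows of rRNA biotype held 0.370% and 0.502% of the counts of dexamethasone libraries, against 0.931% and 0.497% of those of PBS libraries, replicate 1 first in both. Lars2 stood at 0.521 and 0.543 of Gm23935 in dexamethasone libraries and at 0.426 and 0.441 in PBS libraries. The longest stretch that an annotated Lars2 transcript shared with Gm23935 was 8 bases, with CT010467.1 13 bases and with Gm15564, a row of at most 4.97 CPM, 52 bases. The listed mitochondrial rRNA genes mt-Rnr1 and mt-Rnr2 were at −0.14 (adjusted p = 0.645) and −0.03 (adjusted p = 0.938). The part of rRNA-derived reads in the Lars2 counts was not tested.

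**Figure D3:**
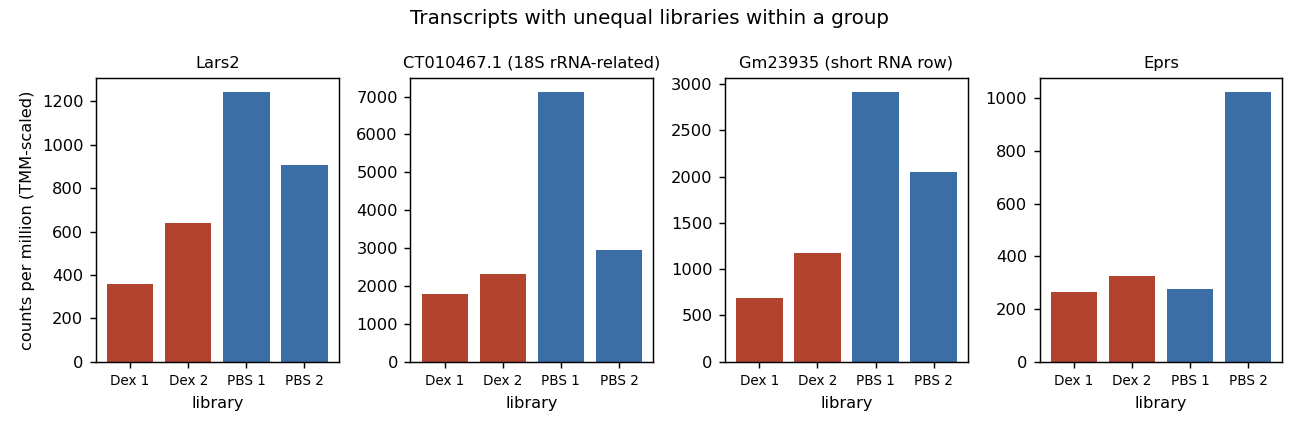
CPM (bars, linear axes from 0, 1 bar per library, dexamethasone in red and PBS in blue) of Lars2, CT010467.1, Gm23935 and Eprs. Lars2, CT010467.1 and Gm23935 share the order of the 4 libraries, and Eprs is high in PBS replicate 2 alone, at 1025 CPM.

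Apart from Lars2, the mitochondrial genes with the smallest p were Fars2, Yars2, Rars2 and Sars2. Fars2, the single-chain phenylalanine enzyme, had 48.1 and 47.8 CPM in dexamethasone libraries and 57.6 and 67.5 CPM in PBS libraries (−0.38 ± 0.14, adjusted p = 0.131). Yars2, for tyrosine, had 26.9 and 21.2 CPM after dexamethasone, with 32.01 and 32.3 CPM after PBS (−0.42 ± 0.17, adjusted p = 0.148). Groups did not overlap for either gene. Rars2, for arginine, had 20.9 and 20.1 CPM after dexamethasone, with 26.7 and 24.4 CPM after PBS (−0.32 ± 0.15, adjusted p = 0.217). Sars2, for serine, had 15.6 and 16.1 CPM after dexamethasone, with 20.3 and 19.3 CPM after PBS (−0.32 ± 0.16, adjusted p = 0.222). Nars2 at −0.23 and Tars2 at −0.16 also had non-overlapping groups, and Mars2 at −0.18 did not.

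At the other end Wars2, the mitochondrial tryptophan enzyme, had the highest fold change of all members, with 16.3 and 15.6 CPM in dexamethasone libraries and 14.7 and 12.1 CPM in PBS libraries (0.25 ± 0.18, adjusted p = 0.397). It was 1 of the 2 members with both dexamethasone libraries above both PBS libraries. Hars2 at 0.08 and Pars2 at 0.04 overlapped, as did Vars2, Ears2, Cars2, Iars2 and Aars2, which lay between −0.07 and −0.01.

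Setting the compartments side by side for 1 amino acid gave 17 pairs, with Eprs and Fars2 in 2 pairs each. The mitochondrial gene had the higher log2 fold change in 10 of 17 pairs, with a median difference of 0.07. With the length trend removed it was higher in 9, with a median difference of 0.02. Histidine showed a wide gap, with Hars2 at 0.08 and Hars at −0.42. Those genes are neighbours transcribed in opposite directions whose exons overlap by 195 bases, where reads cannot be told apart without strand. Tryptophan was alike, with Wars2 at 0.25 and Wars at −0.17. Leucine ran the other way, with Lars2 at −1.10 and Lars at −0.06, and for phenylalanine Fars2 and Farsa both stood at −0.38. Differences within pairs were not tested.

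**Figure D4:**
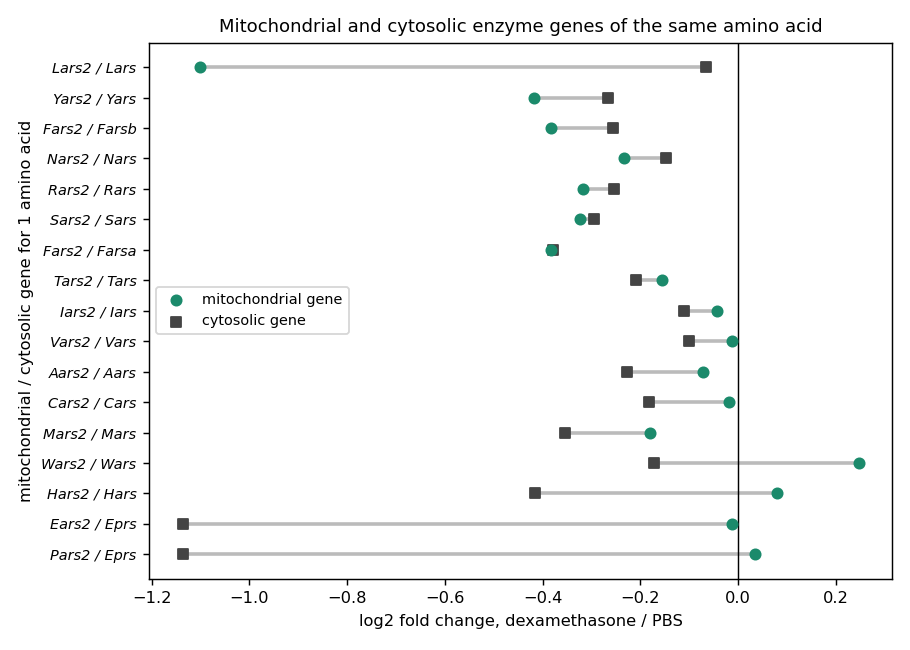
Log2 fold change, dexamethasone over PBS, of the mitochondrial gene (circles) and the cytosolic gene (squares) for the same amino acid, 1 row per pair joined by a line. The mitochondrial gene lies to the right in 10 of 17 rows, and the widest gaps are those with Eprs at −1.14 and Lars2 at −1.10.

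Accessory proteins had a median of −0.44 over the 3 tested, and of −0.28 with the length trend removed, nearer to the other groups. Aimp1, a scaffold of the multisynthetase complex that can also be secreted as a cytokine, had 45.1 and 38.5 CPM in dexamethasone libraries and 53.8 and 60.0 CPM in PBS libraries (−0.44 ± 0.15, adjusted p = 0.104). Aimp2, the scaffold that binds several of the enzymes, had 15.2 and 14.2 CPM after dexamethasone, with 20.4 and 20.3 CPM after PBS (−0.47 ± 0.16, adjusted p = 0.107). Groups were apart in both. Exons of Aimp2 overlap those of the kinase gene Eif2ak1 on the opposite strand over 29.4% of their bases. Prorsd1, which resembles a prolyl-tRNA editing domain, had 14.4 and 11.2 CPM after dexamethasone, with 14.9 and 17.8 CPM after PBS (−0.35 ± 0.20, adjusted p = 0.273). Aarsd1, an editing protein for mischarged alanine tRNA, was counted 13 and 8 times in dexamethasone libraries and 6 and 0 times in PBS libraries, and a count of 0 allows up to 3 counts, or 0.144 CPM. Its exons overlap those of Gm27029 on the same strand over 41.0% of their bases, and what this does to its counts was not tested.

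The members have listed lengths of 1654 to 18102 bases, with a median of 5152. Across the 41 their log2 fold change correlated with log2 length at Pearson r of −0.18, where all protein-coding genes gave 0.39. That r includes Lars2 (11089 bases, −1.10) and Eprs (18102 bases, −1.14), long members with the lowest values, and was not computed without them. Protein-coding genes in the bin with a median length of 4786 bases had a median log2 fold change of 0.03. Removing the length trend moved 22 of the 41 members by over 1.5 times in size or turned their sign, 17 of them lower and 5 higher. Among cytosolic genes Aars moved to −0.44, Qars to −0.32, Cars to −0.31, Vars and Iars to −0.19 and Dars to −0.06, while the shorter genes Hars and Nars moved to −0.26 and −0.06. Among mitochondrial genes Mars2 moved to −0.42, Nars2 to −0.37, Tars2 to −0.29, Iars2 to −0.24, Cars2 to −0.16, Aars2 to −0.12, Vars2 to −0.10 and Ears2 to −0.08. Of those above 0, Wars2 moved to 0.15 and Pars2 to 0.08. Aimp2 moved to −0.28 and Prorsd1 to −0.22. None of the 22 passed in either fit.

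**Figure D5:**
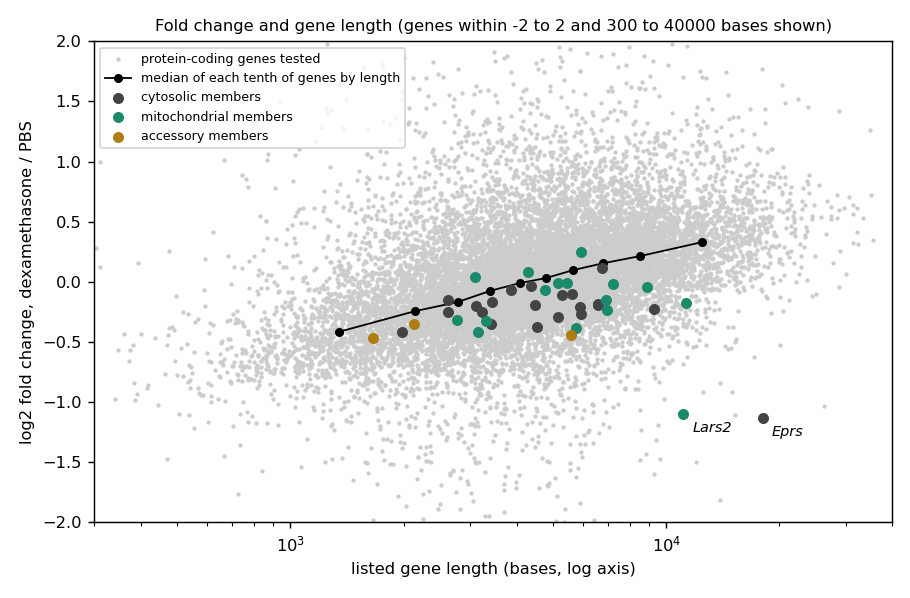
Log2 fold change, dexamethasone over PBS, against listed gene length (log axis) for protein-coding genes (grey) and 40 members (coloured by group), with the median of each of 10 length bins as a black line. Medians climb with length between −0.42 and 0.33, and most members lie under the line, Lars2 and Eprs farthest.

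Other genes of tRNA charging and supply were examined through lists chosen with earlier results of these data known. Over all genes 14.3% were higher and 13.1% lower at an unadjusted p under 0.05, and DESeq2 called 5.36% higher and 5.04% lower. Of 9 complex scaffolds and synthetase partners, some of them members counted above, 8 were tested and 0 passed with edgeR in either direction (median −0.35). At an unadjusted p under 0.05, 3 were lower (Eef1e1 and the members Aimp1 and Aimp2) and 0 higher. DESeq2 called 1 lower and limma-voom 0. Lowest in this list was Eef1e1, the third scaffold of the complex (also called Aimp3). Eef1e1 had 17.5 and 13.3 CPM in dexamethasone libraries and 25.3 and 24.9 CPM in PBS libraries (−0.70 ± 0.18, adjusted p = 0.0595). With 1 library left out the log2 fold change of Eef1e1 ran between −0.92 and −0.52. All 3 scaffolds of the complex had both dexamethasone libraries below both PBS libraries, against 29.7% of all genes.

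Mitochondria charge glutamine tRNA indirectly, through an amidotransferase made of Qrsl1, Gatb and Gatc, and 0 of these or of the formylating enzyme Mtfmt passed with edgeR, DESeq2 or limma-voom, or reached an unadjusted p under 0.05. Qrsl1 was at −0.43 (adjusted p = 0.203), while Gatb, Gatc and Mtfmt lay between −0.13 and 0.08. The same counts held for 6 selenocysteine pathway genes. Among these Sepsecs, which makes selenocysteine on its tRNA, was at 27.7 and 34.4 CPM in dexamethasone libraries, against 25.4 and 24.5 CPM in PBS libraries (0.32 ± 0.16, adjusted p = 0.242). Of 11 elongation factors 0 passed with edgeR or limma-voom (1 higher and 3 lower at an unadjusted p under 0.05, 1 in each direction with DESeq2, against 5.36% of all genes higher and 5.04% lower), with Eef2k, the kinase that inhibits Eef2, at 0.60 (adjusted p = 0.0779) and Eef1b2, an exchange factor for Eef1a, at −0.55 (adjusted p = 0.0841). Without PBS replicate 1 the elongation factors gave 1 higher and 2 lower calls, against 9.53% of all genes higher and 10.4% lower.

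Genes of tRNA maturation had a lower median, −0.31 over 23 tested, and 0 passed with edgeR or limma-voom, while 9 were lower and 0 higher at an unadjusted p under 0.05, against 13.1% of all genes lower. Removal of the length trend gave a median of −0.22. Pop4 and Rpp21 encode subunits of ribonuclease P, which trims tRNA precursors. Pop4 had 44.2 and 33.8 CPM in dexamethasone libraries and 58.7 and 66.3 CPM in PBS libraries (−0.68 ± 0.17, adjusted p = 0.0553), and Rpp21 was at −1.02 ± 0.31 (adjusted p = 0.0814). Tsen34, of the tRNA splicing endonuclease, had 112 and 97.5 CPM after dexamethasone, with 146 and 169.8 CPM after PBS (−0.59 ± 0.15, adjusted p = 0.0590). DESeq2 called 5 of the list lower (5.04% of all genes). The edgeR fit called 6 without PBS replicate 1 (10.4%), 4 without dexamethasone replicate 1 (4.69%) and 1 without PBS replicate 2 (2.15%). Among 20 genes of RNA polymerase III, which transcribes tRNA genes, 0 passed with any of the 3 tools. At an unadjusted p under 0.05 there was 1 in each direction, against 14.3% of all genes higher and 13.1% lower. These were Bdp1 at 0.36 (adjusted p = 0.175) and Polr3d at −0.39 (adjusted p = 0.167). Polr3g was at 0.57 (adjusted p = 0.182) and Gtf3c6 at −0.32 (adjusted p = 0.199). The median of the 20 genes was 0.02. Without PBS replicate 1, 2 of these were called higher (9.53% of all genes).

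Of the known regulators of synthetase genes named above, Atf4 passed the test and Myc did not. In the ATF4 list of 33 genes 1 rose and 2 fell with edgeR, against 3.26% of all genes higher and 1.37% lower. At an unadjusted p under 0.05 there were 6 in each direction, against 14.3% of all genes higher and 13.1% lower. DESeq2 called 2 higher and 3 lower, against 5.36% and 5.04% of all genes. Atf4 itself fell to 108 and 92.5 CPM in dexamethasone libraries, against 189.8 and 329 CPM in PBS libraries (−1.37 ± 0.24, adjusted p = 0.0197). Psat1, a serine synthesis enzyme that ATF4 regulates, fell to 118 and 132 CPM after dexamethasone, against 196 and 248.6 CPM after PBS (−0.83 ± 0.16, adjusted p = 0.0277). Ddit4, an inhibitor of mTORC1 that glucocorticoids are also known to induce, rose to 199 and 148 CPM after dexamethasone, against 55.2 and 43.5 CPM after PBS (1.81 ± 0.19, adjusted p = 0.00461).

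Atf4 passed whichever library was left out, with log2 fold changes between −1.73 and −0.93. The lower calls in the list numbered 7 without PBS replicate 1 (10.4% of all genes), 5 without dexamethasone replicate 1 (4.69%) and 4 without dexamethasone replicate 2 (0.882%). Higher calls numbered 3 without PBS replicate 1 (9.53% of all genes) and 2 without PBS replicate 2 (3.78%). Slc3a2, the heavy chain of amino acid transporters, had 198 and 209 CPM in dexamethasone libraries and 279 and 559 CPM in PBS libraries (−1.04 ± 0.28, adjusted p = 0.0635). Its highest library was PBS replicate 2, as for Eprs and Atf4. Against these, the 5 cytosolic synthetases with the composite letters were between −0.27 and −0.11 and none passed.

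Of 11 genes of MYC and its partners 1 rose and 0 fell with edgeR, against 3.26% of all genes higher and 1.37% lower. The limma-voom counts were the same, against 3.16% and 1.34% of all genes. At an unadjusted p under 0.05, 4 were higher and 1 lower, against 14.3% and 13.1% of all genes. DESeq2 called 1 in each direction, against 5.36% and 5.04% of all genes. Mxd4, which competes with MYC for its partner MAX, rose to 268 and 277 CPM in dexamethasone libraries, against 183 and 146 CPM in PBS libraries (0.73 ± 0.16, adjusted p = 0.0389). That call was lost with the length trend removed (adjusted p = 0.0803), without dexamethasone replicate 2 (adjusted p = 0.0927) and without PBS replicate 2 (adjusted p = 0.0910). Myc had 34.1 and 33.0 CPM after dexamethasone, with 46.5 and 60.7 CPM after PBS (−0.67 ± 0.17, adjusted p = 0.0545).

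Cell type markers that moved alongside were counted over the same fit. Over all genes it called 3.26% higher and 1.37% lower, and at an unadjusted p under 0.05 14.3% were higher and 13.1% lower. DESeq2 called 5.36% of all genes higher and 5.04% lower, and limma-voom 3.16% and 1.34%. Of 8 adrenal cortex markers 1 fell (Nr5a1, −1.35, adjusted p = 0.00461), with 5 lower and 0 higher at an unadjusted p under 0.05, 3 lower with DESeq2, 1 lower with limma-voom and a median of −0.48. The list summed to 45542 and 42232 CPM in dexamethasone libraries and 59944 and 60446 CPM in PBS libraries. Of 5 red blood cell markers 3 fell (5 lower at an unadjusted p under 0.05, 4 with DESeq2 and 2 with limma-voom), and the list summed to 146 and 137 CPM after dexamethasone, with 226 and 394 CPM after PBS. None of those 3 passed with the length trend removed (adjusted p from 0.0971 to 0.108), and Hba-a2 did not without PBS replicate 2 (adjusted p = 0.0615). One of 5 capsule and fibroblast markers fell (Rspo3, −0.81, adjusted p = 0.0296, but 0.0514 with the length trend removed and 0.0551 without dexamethasone replicate 1) and 1 of 6 macrophage markers rose (Mrc1, 1.24, adjusted p = 0.00564). None of 7 chromaffin, 5 endothelial, 6 adipocyte, 4 Schwann or 4 liver markers passed with edgeR, DESeq2 or limma-voom, and 3 of them were higher and 1 lower at an unadjusted p under 0.05. The part of any cell type in the synthetase levels was not tested.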

How the data were processed

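The authors deposited raw read counts for each gene, beside its symbol, coordinates, biotype, description and length. The genome was mm10 (GRCm38), and STAR 2.5, HTSeq 0.6.1 and CASAVA 1.8 are named without a role in the submitters' processing notes. Whether strand was used in counting is not given in the sources used here. Column letters D and S were read as dexamethasone and saline. Of the table's genes 54409 were found in GENCODE release M21, 98.3% of them at the same coordinates. Exons of 18 members overlap another gene, on the same strand for 3 partners and on the opposite one for 18. Reads in the opposite-strand overlaps cannot be told apart without strand, and strand does not separate those on the same strand. On the same strand Aarsd1 shares 41.0% of its exon bases with Gm27029, the largest overlap of a member, and Aars 14.3% with Exosc6.

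Genes passing filterByExpr, 16027 of 27040 with at least 1 count, were tested with edgeR 4.0.16 in R 4.3.3 (TMM factors, glmQLFit and glmQLFTest, group as sole term), with Benjamini-Hochberg adjustment over all of them at 0.05. Fold changes are dexamethasone over PBS, and an SE is the log2 fold change over the square root of F. The length trend was removed as a linear fit of log2 counts on log2 listed length in each library. The fit was tested on simulated counts. Counts of libraries of 1 group differed by a chi-square per degree of freedom of 24.1 (dexamethasone) and 31.7 (PBS), so none was a repeat.

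Alternatives were DESeq2 1.42.0, limma 3.58.1 (voom), other scalings and filters, a replicate block, and each library left out. Members and lists were chosen with earlier results of these data known. Named were all members but 1, which is not reported here by itself, and of each other list the genes that passed and up to 4 more by smallest p, with a few checks of tissue and treatment. Promoters were to be shown only for enzymes that passed or that have a partner in the other compartment, so Gars was added outside that rule for its match.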

Additional observations from a re-analysis of the deposited data

How the results depend on the processing

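Over all genes the main test gave 523 higher and 219 lower calls, library totals alone 893 and 180, DESeq2 859 and 808, no filter 1384 and 1329, and removal of the length trend 260 and 125. Leaving out 1 library gave 337 to 1595 higher and 147 to 1747 lower calls, highest without PBS replicate 1. Among the synthetase genes lower calls numbered 0 in the main test, 2 with no filter, 1 each with DESeq2, limma-voom, a stricter filter, the length trend removed and that removal with the replicate block, and 0 to 5 with 1 library left out. Calls of higher synthetase genes stayed at 0 in all 14 alternatives, although leaving rRNA rows out of library sizes could not change the main test (below). The mitochondrial median of −0.07 was 0.018 with library totals alone, which also moved the median of all genes to 0.10. It was −0.24 with the length trend removed, with or without the block, and −0.20 to −0.061 with 1 library left out.

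Signs turned with library totals alone for Dars (0.056), Lars (0.028), Aars2 (0.018), Cars2 (0.075), Ears2 (0.080), Iars2 (0.050) and Vars2 (0.081), and for Tarsl2 with the length trend removed (−0.015, and −0.0035 with the block). With 1 library left out the log2 fold change ran over −0.18 to 0.096 for Dars, −1.81 to 0.092 for Eprs, −0.082 to 0.31 for Tarsl2, −0.22 to 0.062 for Aars2, −0.15 to 0.093 for Cars2, −0.10 to 0.069 for Ears2, −0.068 to 0.21 for Hars2 and −0.36 to 0.00033 for Mars2. It ran over −0.047 to 0.11 for Pars2, −0.068 to 0.037 for Vars2, −0.071 to 0.23 for Gatc, −0.12 to 0.28 for Mtfmt and −0.31 to 0.90 for Ddit3. The cause of these moves was not tested.

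The replicate 1 minus 2 differences of the groups correlated at −0.03 over genes, so the samples were taken to share only a number, although the 4 liver markers were higher in replicate 1 in both groups. A replicate block gave 244 higher and 89 lower genes, and with the length trend removed 208 and 105. No synthetase gene changed side under the block alone, where Lars2 had an adjusted p of 0.0813. Psat1 (adjusted p = 0.0650) and Mxd4 (adjusted p = 0.0996) no longer passed there.

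Chosen after seeing the data were every symbol ending in 2 counted as mitochondrial (median −0.07) and medians without Lars2 and Eprs (−0.20 cytosolic, −0.06 mitochondrial). Neither moved a value past its replicate spread. Leaving rRNA rows out of library sizes, also chosen then, gave the main values again. TMM factors computed afterwards undo that change, so it could not test anything. No gene was called in the main test at the sizes seen in 39 of the 41 members tested.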
